A study of Drosophila melanogaster with 72 samples.

Results

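The RNA of male flies without their heads was compared between 7 and 5 weeks of age. Of 72 libraries in the study, 10 entered: those labelled periphery at ALF ZT06, ZT12 and ZT18 and at TRF ZT12 and ZT18, with 5 libraries at each age. They were chosen because both ages were sampled there and ninaE, the rhodopsin of the outer photoreceptors, was below 10 FPKM. The study sampled heads, periphery and hearts of Oregon R males around the day. Flies were kept on a standard cornmeal, molasses and agar food at 25C, either with food at all times (ALF, ad libitum) or under time-restricted feeding (TRF), in which the food alternated with agar and water alone. Flies were snap frozen. Periphery is the whole body but the head, so every library mixes many tissues, and ZT is the labelled time after lights on in hours. Each combination of age, feeding type and ZT had 1 library, and the labels do not say how many flies a library pooled. In all, 5 pairs of the same feeding type and ZT were compared, and p-values measure only the spread between these libraries. The labels give no batch, so age and batch cannot be told apart. Values per library are given below as FPKM (fragments scaled by transcript length and library depth) in the order ALF ZT06, ALF ZT12, ALF ZT18, TRF ZT12, TRF ZT18.

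The gut of the fly secretes digestive enzymes and renews its lining from stem cells. The fat body stores lipid and makes storage proteins, among them hexamerins, and flight and leg muscles lose performance with age. Protein balance depends on ribosomes, which make proteins, on chaperones, which fold them, and on the proteasome, which degrades those marked by ubiquitin.

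Low ninaE chose the libraries, so eye genes are no check of the tissue label and are given as a description. The summed level of 18 eye genes, of which 5 were tested, was 28.8 to 34.0 FPKM at week 5 and 28.7 to 35.6 FPKM at week 7, and ninaE was at most 0.633 FPKM. Genes of organs outside the head were not used to choose the libraries. Transcripts of sperm and testis (43 of 46 genes tested) summed to 8993 to 10888 FPKM at week 5 and 6436 to 10074 FPKM at week 7. Seminal fluid genes (62 tested) summed to 11121 to 15489 and 11598 to 15555 FPKM. Depth, recovered from the spacing of low FPKM values, was 8.41 to 20.8 Mreads at week 5 and 7.95 to 15.8 Mreads at week 7. The first principal component (30.3% of the variance) set the week 5 TRF ZT18 library (32.1) against the week 7 ALF ZT18 library (-30.9), and the second (16.8%) had all week 5 libraries at 7.32 or more and all week 7 libraries at -4.80 or less.

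Clock genes did not follow the labelled ZT in some week 7 libraries, which bears on the pairs. The clock gene timeless (tim), whose RNA is high at night, had 11.9, 43.8, 147, 17.9 and 142 FPKM at week 5 and 78.8, 19.8, 93.5, 52.0 and 21.8 FPKM at week 7. At week 7 it was thus high at ALF ZT06, when it was low at week 5, and low at TRF ZT18, when it was high. The related clock gene period (per) had 3.32, 8.09, 18.2, 4.74 and 22.9 FPKM at week 5 and 9.94, 6.03, 17.6, 5.59 and 6.63 FPKM at week 7, and was also low at TRF ZT18. Clock, the activator of both, had 21.9, 21.6, 15.1, 19.3 and 15.7 FPKM at week 5 and 7.12, 19.6, 15.8, 16.2 and 18.1 FPKM at week 7, with the lowest value at week 7 ALF ZT06. For tim and per, ALF ZT12 and ZT18 kept their week 5 order at week 7. The 5 week 3 periphery libraries of the same labels had tim at 45.1, 18.4, 92.5, 63.8 and 21.7 FPKM. Their per was at 6.36, 3.37, 11.6, 5.09 and 4.86 FPKM, so low values at TRF ZT18 were not particular to week 7. Whether labels, ageing or feeding moved these levels was not tested. For this reason 2 comparisons are given side by side. One is the fit over the 5 pairs. The other sets the 5 week 7 libraries against all 16 week 5 periphery libraries, taken at 8 times of day under both feeding types. It does not use the labelled times, but it has no term for time of day. By label, the 5 week 7 libraries come from ZT06, ZT12 and ZT18 alone, while week 5 covers 8 times. Age and time of day can thus not be told apart there.

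**Figure D1:**
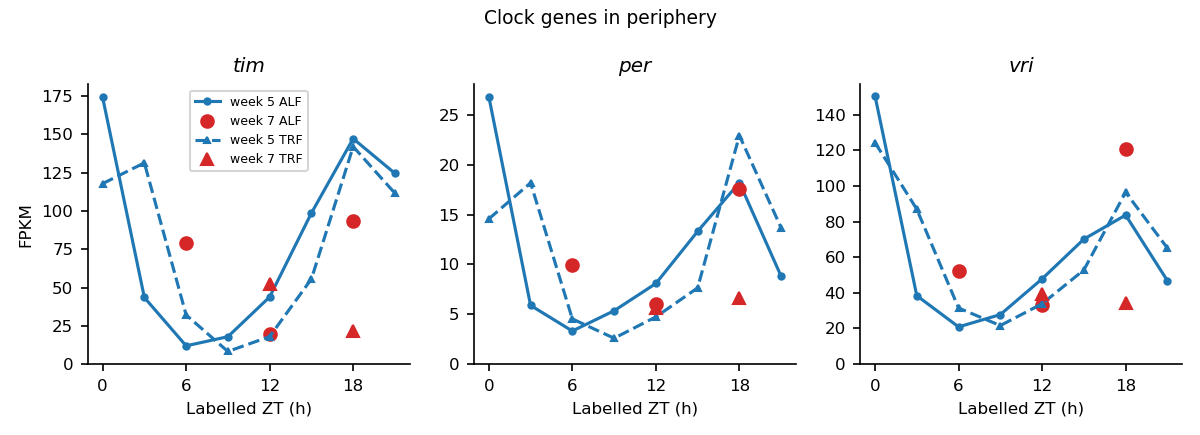
FPKM of tim, per and vri (a clock repressor) by labelled ZT in hours. Lines join the week 5 libraries (8 times, ALF solid and TRF dashed) and red symbols are the 5 week 7 libraries, of which TRF ZT18 lies far below its week 5 partner for all 3 genes.

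Across all genes, none passed in the 5 pairs, and 1570 passed against all 16 week 5 libraries. In the paired fit (limma on log2(FPKM + 1), Benjamini-Hochberg adjustment, threshold 0.05), 0% of 11974 genes passed in either direction, with a smallest adjusted p of 0.0721. An unadjusted p under 0.05 was found for 981 genes higher at week 7 (8.19% of those tested) and 906 lower (7.57%). All 5 pairs had the same sign for 1103 higher (9.21%) and 833 lower genes (6.96%). The 5 week 7 values all lay above the 5 paired week 5 values for 434 genes (3.62%) and all below for 331 (2.76%). They lay above all 16 week 5 values for 154 genes (1.29%) and below all 16 for 53 (0.443%). Against all 16 week 5 libraries, limma called 906 of 11942 genes higher (7.59%) and 664 lower (5.56%). In what follows, "rose" and "fell" refer to this second fit, its p is called the adjusted p over 16 libraries, and changes without a further word come from the paired fit. The second fit shares its 5 week 7 libraries with the first and is no independent support for it.

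The genes that were lower with the smallest p were led by a muscle protein, a storage protein and a subunit of the respiratory chain. Scp1 (CG15848; 2RHet, 1707796 to 1742313, minus strand, dm3), a sarcoplasmic calcium-binding protein, had 75.6, 52.6, 57.6, 49.2 and 61.0 FPKM at week 5 and 28.3, 27.9, 21.3, 23.7 and 19.98 FPKM at week 7. The groups did not overlap, and the week 7 values also lay below all 16 week 5 values. The change was -1.25 (SE 0.12, adjusted p = 0.0721, lower in 5 of 5 pairs), and Scp1 fell over 16 libraries (adjusted p = 6.02e-06). At week 3, in the 5 periphery libraries with ninaE below 10 FPKM, it had been 50.8 ± 7.73 FPKM (SD, n = 5). Lsp2 (CG6806; 3L, 12122493 to 12124796, plus strand), a storage hexamerin of the fat body, had 16.6, 36.5, 35.3, 24.5 and 68.5 FPKM at week 5 and 3.50, 5.22, 8.27, 7.46 and 28.4 FPKM at week 7. TRF ZT18 was highest at both ages, and the groups overlap. The change was -1.87 (SE 0.18, adjusted p = 0.0721, lower in 5 of 5 pairs). It fell over 16 libraries (adjusted p = 0.0205), but not without week 7 ALF ZT06, ALF ZT12 or TRF ZT12 (adjusted p up to 0.0641). Lsp2 ran from 34.98 to 649 FPKM at week 3 and from 16.6 to 268 FPKM over the 16 week 5 libraries. Fat body markers went both ways: of 5 tested, 3 lay above 0 and 2, with Lsp2, below (median 0.35). Their pair medians were -0.36, -0.26, 0.73, -0.35 and 0.47. Over 16 libraries the yolk protein gene Yp3, at 3.38 to 7.37 FPKM at week 7, rose and Lsp2 fell, beside 7.59% and 5.56% of all genes. With a minimum mean of 5 FPKM, 3 were tested over 16 libraries (median -0.02). Of these 0 rose and 1 fell, beside 883 and 579 of all 9520 genes tested there. The summed level of all 11 markers measured was 133 to 310.2 FPKM at week 5 and 94.98 to 279 FPKM at week 7. In bulk samples, fewer cells of a type and less RNA per cell cannot be told apart.

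CG40002 (3LHet, 459586 to 460457, plus strand), a subunit of respiratory complex I, had 28.7, 24.3, 17.6, 21.5 and 21.5 FPKM at week 5 and 12.5, 11.3, 10.6, 11.8 and 10.9 FPKM at week 7. All week 7 values lay below all 16 week 5 values. The change was -0.92 (SE 0.09, adjusted p = 0.0721; over 16 libraries 0.000478). Its week 3 level was 10.9 ± 1.33 FPKM, so week 5 stood above both other ages. RpL38 (2R, 403505 to 403963, minus strand), a protein of the large ribosomal subunit, went the same way, with 899.8, 951, 803, 898 and 907 FPKM at week 5, 561, 562, 561, 656 and 535 FPKM at week 7 and 475 ± 60.5 FPKM at week 3 (change -0.63, SE 0.09, adjusted p = 0.171; fell over 16 libraries, adjusted p = 0.00300). CG17486 (2R, 506535 to 508338) was at 23.9 ± 2.09 FPKM at week 5, 16.9 ± 1.496 FPKM at week 7 and 15.3 ± 1.05 FPKM at week 3. CG9297, in contrast, was lower at each later age, with 62.0 ± 5.29, 51.5 ± 3.50 and 35.6 ± 0.646 FPKM, and fell over 16 libraries (adjusted p = 1.84e-05).

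The other lower genes with the smallest p were CG43680, CG11113, CR44192, Npc2e, CG43788, CG30395, TpnC41C, CR32660 and a small nucleolar RNA. Npc2e, of a family of sterol-binding proteins (-1.11), and the noncoding CR44192 (-0.94) overlap, and unstranded reads do not tell them apart. The troponin C gene TpnC41C (2R, 953801 to 957715, minus strand) had 20.6, 10.98, 13.2, 15.3 and 21.6 FPKM at week 5 and 12.3, 7.03, 5.76, 5.29 and 6.97 FPKM at week 7. It was lower in every pair while the groups overlapped through the week 7 ALF ZT06 library (-1.04, SE 0.15). All 15 genes fell over 16 libraries, with adjusted p from 6.02e-06 to 0.0257. Beside Lsp2, the calls of Npc2e and CR44192 were lost without week 7 ALF ZT12 (adjusted p 0.0620 and 0.0518), that of CG43788 without TRF ZT12 (0.0719) and that of CG43680 without ALF ZT06 or TRF ZT18 (up to 0.0802). Week 3 means of 11 of these 15 lower genes lay below week 5, on the side of week 7. Of the 15 higher genes described next, 7 had a week 3 mean above week 5, also on the side of week 7, and 8 had one below it. Week 5 values took part in choosing these genes, which favours a week 3 mean on the week 7 side. These counts are thus a description, and the share over all genes was not worked out.

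Among higher genes, a digestive protease and the serine protease homolog scarface came first. Jon99Fi (CG18030; 3R, 26314685 to 26315617, plus strand), a Jonah-type serine protease of the gut, had 4.73, 3.24, 4.01, 1.18 and 3.51 FPKM at week 5 and 16.5, 10.01, 13.4, 6.09 and 6.71 FPKM at week 7. The groups did not overlap (change 1.40, SE 0.14, adjusted p = 0.0721; rose over 16 libraries, adjusted p = 0.000100), but the week 3 mean was as high, at 9.48 ± 4.96 FPKM. Scarface (scaf, CG11066; 2R, 1564255 to 1579228, minus strand) is a secreted serine protease homolog without catalytic activity. It had 7.88, 9.996, 8.51, 8.69 and 8.19 FPKM at week 5 and 13.5, 14.8, 12.7, 14.3 and 13.8 FPKM at week 7. All week 7 values exceeded all 16 week 5 values (0.62, SE 0.07, adjusted p = 0.104; rose over 16 libraries, adjusted p = 0.000301). Its level climbed across the 3 ages from 5.15 ± 0.639 FPKM at week 3 to 13.8 ± 0.785 FPKM at week 7.

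RnrL (CG5371; 2L, 10325026 to 10327943, minus strand), the large subunit of ribonucleotide reductase, which makes the building blocks of DNA, had 2.73, 3.81, 2.43, 2.69 and 2.69 FPKM at week 5 and 7.83, 5.26, 5.53, 5.21 and 5.46 FPKM at week 7. The lowest week 7 value lay above the highest of 16 at week 5, and ALF ZT06 stood apart at week 7 (0.82, SE 0.13, adjusted p = 0.171; rose over 16 libraries, adjusted p = 0.000346). Week 3 was lower still, at 1.996 ± 0.370 FPKM. The septin gene Sep2, a part of the cytoskeleton at dividing cells, showed the same order with 27.9 ± 1.297, 36.1 ± 1.96 and 49.5 ± 4.53 FPKM at weeks 3, 5 and 7 (0.44, SE 0.08). nAcRbeta-21C, a nicotinic acetylcholine receptor subunit, was at 20.3 ± 1.92 and 30.6 ± 4.56 FPKM at weeks 5 and 7 and overlaps Ets21C. RpS5b, a second copy of the ribosomal protein S5 gene, was at 26.0 ± 3.67 and 39.4 ± 5.04 FPKM. The others were CG10527, CG31975, CG5080, CG14285, CG15046, CG13386, pgc, CG42868 and a copy of the 5.8S ribosomal RNA (5.8SrRNA:CR40454), a repeated gene whose reads cannot be assigned to 1 copy. All 15 rose over 16 libraries, CG13386 with the largest adjusted p (0.0452), which was up to 0.200 without week 7 ALF ZT12, ALF ZT18 or TRF ZT12. The call of pgc was lost without ALF ZT06 or TRF ZT18 (adjusted p up to 0.0758). In 13 of the 15, and in 10 of the 15 lower genes, the groups of 5 did not overlap; since p chose these genes, that is a description.

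**Figure D2:**
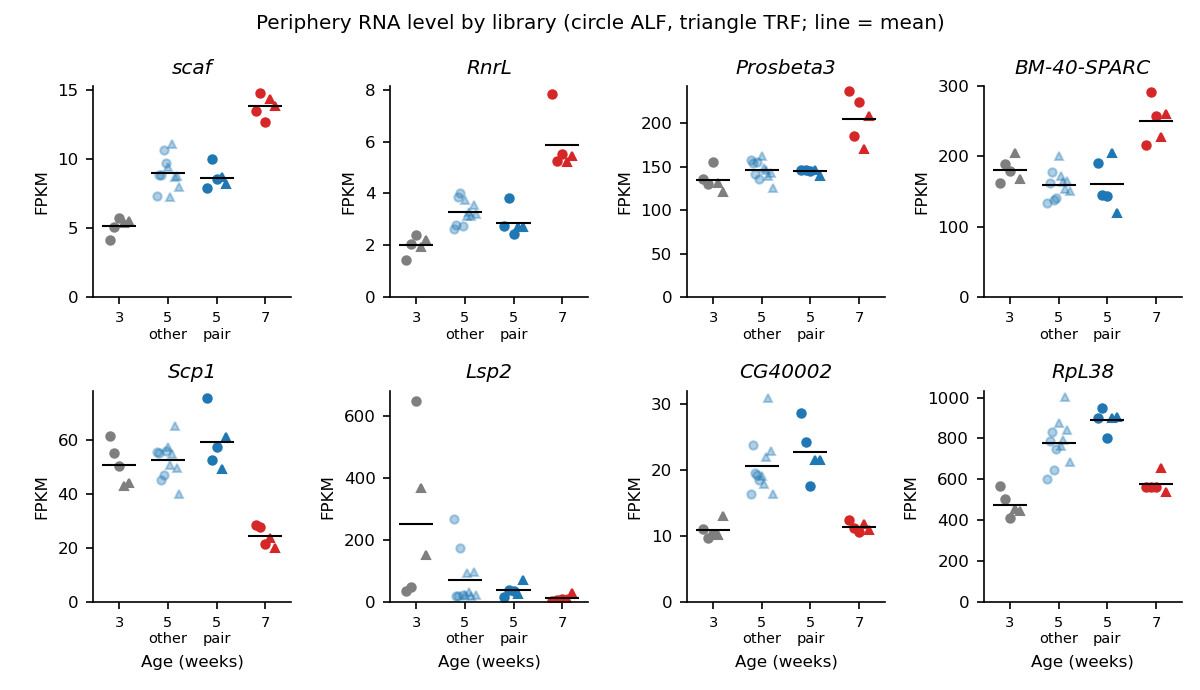
FPKM of 8 genes in each periphery library by age, with the week 5 libraries split into the 11 outside and the 5 inside the pairs; circles are ALF, triangles TRF and lines means. scaf and RnrL climb over the 3 ages, Scp1 drops after week 5, and CG40002 and RpL38 have a higher mean at week 5 than at weeks 3 and 7.

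Most genes of the proteasome, which degrades marked proteins, rose over 16 libraries. All 26 members tested lay above 0 (median 0.40, range 0.15 to 0.54), against a median of 0.01 over all genes. Their transcripts had a median length of 1186 bases. Among all genes of 811 to 1279 bases, 11.9% rose over 16 libraries, against 1.795% of those of 2797 bases or more, and the part of length in these counts was not tested. Of the 26, 17 had non-overlapping groups and 7 lay above all 16 week 5 values, beside 3.62% and 1.29% of all genes. None passed in the paired fit, and 23 rose over 16 libraries, beside 7.59% of all genes (17 to 25 when any 1 of the week 7 libraries was left out). Prosbeta3 (3R, 4831035 to 4831948, minus strand), a subunit of the core barrel, had 146, 146, 145, 146 and 139 FPKM at week 5 and 237, 185, 224, 170.3 and 208 FPKM at week 7. The week 5 libraries lay within a narrow band and every week 7 library was above it (0.49, SE 0.10, adjusted p = 0.171; over 16 libraries 0.000346; the gene overlaps CG11980). Rpt3, an ATPase of the cap that unfolds substrates, had 86.8, 85.9, 83.1, 90.0 and 74.0 FPKM at week 5 and 132, 109, 126, 102 and 123 FPKM at week 7, again without overlap (0.49, SE 0.11; over 16 libraries adjusted p = 0.000491). The core subunit Prosbeta5 went from 166 ± 11.05 to 245 ± 40.6 FPKM (SD, n = 5 each; rose over 16 libraries, adjusted p = 0.000952). The median difference was 0.54, 0.15 and 0.51 in the 3 ALF pairs and 0.15 and 0.58 in the 2 TRF pairs, smallest at ZT12 under both feeding types. For the 13 copies made in testis the median was -0.03. None rose or fell over 16 libraries (limma), and 1 was lower at an unadjusted p under 0.05 in the paired fit. The list mean of log2(FPKM + 1) of the general proteasome was 6.53 to 7.11 at week 3, 6.62 to 6.98 in the 16 libraries of week 5 and 6.95 to 7.34 at week 7.

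Cytosolic ribosomal protein genes were mostly higher by a small amount, except RpL38. Of 89 tested, 80 lay above 0 (median 0.20), 31 were higher and 2 lower without overlap, and 28 lay above all 16 week 5 values, beside 3.62%, 2.76% and 1.29% of all genes. Over 16 libraries 59 rose and 1, RpL38, fell, beside 7.59% and 5.56% of all genes. Their transcripts are short (median 644 bases), and 9.77% of all genes of up to 810 bases rose. The part of length was not tested. Without week 7 ALF ZT12 or without TRF ZT12 37 rose. RpS12 went from 880.3 ± 67.3 to 1101 ± 59.3 FPKM (0.32, SE 0.09) and rose over 16 libraries (adjusted p = 0.00118). The list's pair medians were 0.27, 0.34, 0.02, 0.17 and 0.15, so the ALF ZT18 pair hardly differed. Its mean log2(FPKM + 1) was 9.45 to 9.61 at week 3, 9.43 to 9.74 at week 5 and 9.72 to 9.85 at week 7. Mitochondrial ribosomal proteins had a median of 0.17, 64 of 73 above 0, and 26 rose over 16 libraries while mRpS5 fell (-0.59, SE 0.10, from 29.3 ± 3.31 to 19.2 ± 2.78 FPKM). Their count of rises was 10 without week 7 ALF ZT18, 11 without ALF ZT12 and 17 without ALF ZT06.

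Chaperones were higher in some pairs only. The 8 subunits of TRiC, which folds actin and tubulin and is a topic of the study, all lay above 0 (median 0.33), but the pair medians were -0.06, 0.48, 0.56, 0.03 and 0.73. Cct5 had 76.0, 71.5, 65.1, 71.4 and 46.5 FPKM at week 5 and 86.6, 115, 115, 87.5 and 83.6 FPKM at week 7 and rose over 16 libraries (adjusted p = 0.0108), as did the TRiC gene CG8258 (adjusted p = 0.0218, and up to 0.0751 without week 7 ALF ZT12 or ALF ZT18). Of 17 heat shock genes tested, 16 lay above 0 (median 0.18) and 4 small heat shock or related genes rose, beside 7.59% of all genes. Hsp22 had 28.103, 37.6, 52.0, 41.5 and 55.4 FPKM at week 5 and 307, 65.3, 219.7, 55.2 and 49.4 FPKM at week 7. Its high values were the ALF ZT06 and ZT18 libraries, without either of which the adjusted p over 16 libraries went from 0.0217 to as much as 0.0845. Hsp67Bb overlaps Hsp22, and Cct5 overlaps EndoG. Hsp23 rose (from 56.9 ± 10.1 to 88.6 ± 35.6 FPKM, adjusted p = 0.0109), and Hsp26 had 122, 177, 245, 131 and 139 FPKM at week 7 against 119.7, 132, 122, 109.6 and 109 FPKM at week 5. Its adjusted p over 16 libraries was 0.0256, and up to 0.0925 without week 7 ALF ZT12 or ALF ZT18. The number of rises was 1 without week 7 ALF ZT18 and 2 without ALF ZT06.

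**Figure D3:**
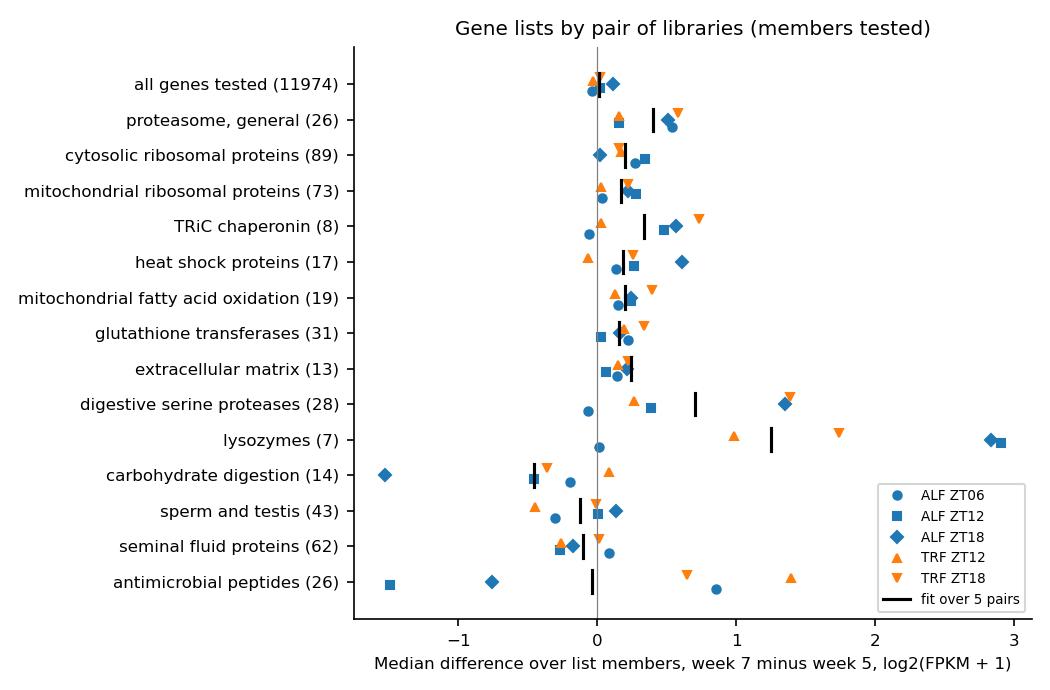
Median difference of week 7 minus week 5 in log2(FPKM + 1) over the members of 15 gene groups, for each pair of libraries (blue ALF, orange TRF) and in the fit over the 5 pairs (black bar), with the number of genes tested. Proteasome genes lie above 0 in every pair, while the pairs of antimicrobial peptides lie on both sides.

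Digestive proteases were mostly higher and enzymes of carbohydrate digestion mostly lower. Digestive serine proteases, the trypsins and Jonah proteases secreted by the gut, had a median of 0.70, with 23 of 28 above 0. Over 16 libraries 27 were tested, of which 9 rose and 0 fell, beside 7.59% and 5.56% of all genes. epsilonTry went from 68.0 ± 19.3 to 141 ± 24.8 FPKM (1.07, SE 0.24; adjusted p over 16 libraries 0.00272) and Jon65Aiv from 980.3 ± 354 to 2241 ± 997 FPKM (1.18, SE 0.32; 0.00705). zetaTry had 21.5, 23.9, 26.2, 17.5 and 12.5 FPKM at week 5 and 28.6, 35.2, 46.7, 23.7 and 29.5 FPKM at week 7, higher in every pair with overlapping groups. Pair medians of -0.07, 0.39, 1.35, 0.26 and 1.38 were largest at ZT18. Jonah and trypsin genes have close copies, whose shared reads may be divided between them. The list mean was 5.33 to 7.38 at week 3, 5.25 to 6.91 in the 16 libraries of week 5 and 5.99 to 7.10 at week 7, and these ranges overlap.

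Genes for carbohydrate digestion, mostly maltases, had a median of -0.46, and 13 of 14 lay below 0. Over 16 libraries 5 fell, beside 5.56% of all genes, but 1 without week 7 ALF ZT12 and 0 without ALF ZT18. The ALF ZT18 pair had a median of -1.53 (the others -0.20, -0.45, 0.08 and -0.36). The glucosidase gene tobi had 1287, 814, 1617, 1289 and 1634 FPKM at week 5 and 558, 571, 463, 1374 and 1001 FPKM at week 7. The 3 ALF libraries were low at week 7 and the 2 TRF libraries were within the week 5 range (-0.83, SE 0.25; adjusted p over 16 libraries 0.0142, and 0.0526 without ALF ZT18); tobi overlaps rha and LysP overlaps mwh. Lysozymes, gut enzymes that cut bacterial walls, had 7 of 7 above 0 (median 1.25). LysP had 68.6, 78.2, 44.3, 89.6 and 66.5 FPKM at week 5 and 281, 193, 122, 94.2 and 149 FPKM at week 7 without overlap, although TRF ZT12 was close to its partner (1.20, SE 0.25; over 16 libraries adjusted p = 0.0190, and up to 0.0703 without week 7 ALF ZT06 or ALF ZT12). LysB and LysP were the 2 that rose over 16 libraries, beside 7.59% of all genes, and 0 or 1 did when any 1 week 7 library was left out.

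**Figure D4:**
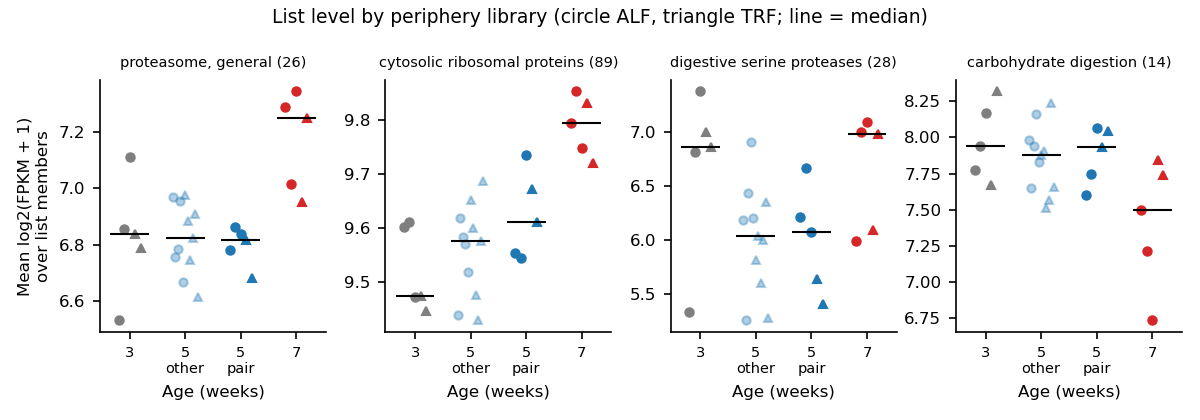
Mean log2(FPKM + 1) over the members of 4 gene groups in each periphery library by age (week 5 split as outside and inside the pairs); circles are ALF, triangles TRF and lines medians. The week 7 medians of proteasome (7.25) and ribosomal genes (9.79) are the highest, and carbohydrate digestion is lowest in the week 7 ALF ZT12 and ZT18 libraries.

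Genes of the sarcomere, the contractile unit of muscle, rose and fell in like numbers. Among 30 sarcomere genes the median was 0.06, and over 16 libraries 9 rose and 7 fell, beside 7.59% and 5.56% of all genes. The 9 that rose had a median transcript length of 1222 bases and the 7 that fell one of 2601 bases. Of all genes of 2797 bases or more 9.85% fell, and the part of length was not tested. Some flight muscle genes were among those that fell. Flightin (fln), of the thick filament, went from 49.5 ± 11.9 to 26.9 ± 7.49 FPKM (adjusted p over 16 libraries 0.00117). TpnC4, the troponin C for stretch activation, went from 12.2 ± 3.36 to 6.43 ± 6.36 FPKM (0.00447). Its SD at week 7 was close to its mean, so these libraries varied widely. Act88F, the flight muscle actin gene of the list, neither rose nor fell. The giant kinase bt, a projectin that links filaments, went from 14.5 ± 1.78 to 10.3 ± 0.999 FPKM (0.000346). It lies on the fourth chromosome, where 54.5% of 77 genes fell over 16 libraries, so its fall is not particular to muscle genes. TpnC73F, another troponin C, had 45.1, 50.9, 40.3, 49.8 and 41.6 FPKM at week 5 and 64.3, 68.6, 66.2, 58.5 and 59.0 FPKM at week 7. It did not overlap and rose over 16 libraries (0.47, SE 0.09, adjusted p = 0.00611), opposite to TpnC41C. Act57B, an actin, rose from 934 ± 101 to 1234 ± 84.3 FPKM. Of 13 matrix genes 12 lay above 0 (median 0.24) and 4 rose, beside 7.59% of all genes, but 2 without week 7 ALF ZT18 or without TRF ZT12. BM-40-SPARC, a collagen-binding protein of basement membranes, had 191, 145, 143, 205 and 119 FPKM at week 5 and 217, 292, 258, 227 and 260.2 FPKM at week 7, all above the 16 week 5 values (0.66, SE 0.17; over 16 libraries adjusted p = 0.00111). Timp and Mmp1 rose over 16 libraries but not without week 7 TRF ZT12 (adjusted p up to 0.0709 and 0.0807; Mmp1 was also lost without ALF ZT18).

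Markers of blood cells and neurons had medians near or below 0. Hemocyte markers had a median of -0.01 (10 tested, summed 145 to 182 FPKM at week 5 and 147 to 184 FPKM at week 7). Over 16 libraries 2 prophenoloxidase genes of crystal cells fell, beside 5.56% of all genes. proPO45 had 19.2, 15.4, 13.4, 13.6 and 18.8 FPKM at week 5 and 12.9, 12.1, 8.96, 11.6 and 7.06 FPKM at week 7, and its call had an adjusted p of 0.0115 (0.0507 without week 7 TRF ZT18). proPO-A1 went from 13.5 ± 4.02 to 8.72 ± 1.49 FPKM (adjusted p over 16 libraries 0.0149). Neuron markers (9 tested, median -0.18) had 1 rise and 3 falls, beside 7.59% and 5.56% of all genes, and 1 fall without week 7 ALF ZT06, ALF ZT12, TRF ZT12 or TRF ZT18. Of these, the vesicle calcium sensor Syt1 had 4.29, 5.17, 3.90, 3.88 and 5.13 FPKM at week 5 and 2.79, 3.27, 3.21, 3.40 and 3.17 FPKM at week 7, below all 16 week 5 values (adjusted p over 16 libraries 0.00606; it overlaps CR43821). The synaptobrevin gene n-syb rose from 21.4 ± 2.73 to 26.9 ± 2.06 FPKM. Among the 3 neuron markers with a mean of at least 5 FPKM the median was 0.24 in the pairs and 0.04 over 16 libraries, so the sign of the list changed with the filter.

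Most sperm and testis genes were slightly lower, and seminal fluid genes went both ways. Of 43 sperm and testis genes 35 lay below 0 (median -0.12), with pair medians of -0.31, 0.00, 0.13, -0.45 and -0.01. Over 16 libraries 6 fell and 0 rose, beside 5.56% and 7.59% of all genes, and only 1 fell without week 7 TRF ZT12, 2 without ALF ZT06, 3 without ALF ZT12 and 0 without both TRF libraries. Summed levels overlapped between the ages, as given above. The sperm gene djl had 68.4, 52.3, 49.5, 56.5 and 56.0 FPKM at week 5 and 40.3, 42.8, 45.0, 31.4 and 40.3 FPKM at week 7 without overlap (-0.49, SE 0.12; adjusted p over 16 libraries 0.00908). Seminal fluid genes, made in the accessory glands and ducts, had a median of -0.10 over 62 members, pair medians of 0.08, -0.27, -0.18, -0.26 and 0.01, and 3 rises and 7 falls over 16 libraries, beside 7.59% and 5.56% of all genes. Acp24A4 had 105, 104, 98.5, 98.2 and 104 FPKM at week 5 and 53.2, 51.0, 52.6, 66.5 and 88.996 FPKM at week 7 without overlap, TRF ZT18 nearest to week 5 (-0.73, SE 0.14; adjusted p over 16 libraries 0.00171). Sfp79B rose from 10.7 ± 11.2 to 40.1 ± 10.7 FPKM (adjusted p over 16 libraries 0.00280). Obp51a, an odorant-binding protein gene, had 501, 490.2, 467, 399 and 473 FPKM at week 5 and 309, 239, 386, 284 and 319.6 FPKM at week 7 and fell (adjusted p 0.00792). Of 31 odorant-binding genes 3 rose and 5 fell, beside 7.59% and 5.56% of all genes. Obp50b and Obp50c, among the falls, hold the same values and are 1 signal. Without week 7 ALF ZT06 or without TRF ZT12 1 rose and 2 fell, and without TRF ZT18 1 rose and 3 fell.

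In metabolism, single enzymes stood out while most pathways had medians near 0. Medians were -0.00 for the citric acid cycle (21 genes), 0.02 for glycolysis and trehalose (24), 0.09 for complex I (33) and 0.07 for complexes II to V (35). Mitochondrial fatty acid oxidation had 17 of 19 above 0 (median 0.20) and 3 rises over 16 libraries, beside 7.59% of all genes. When any 1 week 7 library was left out, 1 to 2 rose. Lipase and fat storage genes had a median of -0.24 over 18 members and 2 falls (beside 5.56% of all genes), which were 0 without week 7 ALF ZT12 or without ALF ZT18. The dehydrogenase gene scu had 121, 129.9, 162, 136 and 118 FPKM at week 5 and 195, 213, 231, 159 and 204 FPKM at week 7 (0.58, SE 0.11; 0.00118 over 16 libraries); the calls of Thiolase and CG7834 were lost without single week 7 libraries (adjusted p up to 0.119 and 0.113, the first without any of the 5 and the second without any but ALF ZT18). In complex I 27 of 33 genes lay above 0. Over 16 libraries 4 rose and 2 fell, beside 7.59% and 5.56% of all genes (1 rose without week 7 TRF ZT18 and 2 without ALF ZT06). In complexes II to V 29 of 35 lay above 0 and 3 rose, but 0 without TRF ZT12 or without TRF ZT18 and 1 without any one of the 3 ALF libraries; by median-of-ratios rescaling 0 rose there and 2 in complex I. The 2 that fell in complex I were CG40002 and CG15434 (from 23.4 ± 1.56 to 15.53 ± 2.72 FPKM, adjusted p over 16 libraries 0.00661; it overlaps Gs1l). Glutathione transferases, which conjugate toxic compounds, had a median of 0.16 and 6 rises among 31 tested, beside 7.59% of all genes. Without week 7 ALF ZT18 or without TRF ZT18 3 rose. GstO3 had 60.2, 46.1, 44.2, 43.0 and 50.5 FPKM at week 5 and 92.9, 83.0, 90.4, 50.2 and 72.2 FPKM at week 7, with TRF ZT12 inside the week 5 range (0.64, SE 0.13; 0.000973). PHGPx, a glutathione peroxidase, had 420.2, 420.4, 345, 403 and 364 FPKM at week 5 and 508, 493, 486, 456 and 484 FPKM at week 7 and rose (0.00921). The cytochrome P450 gene Cyp28d1 had 161, 139.6, 199, 156.5 and 127 FPKM at week 5 and 85.6, 74.5, 77.4, 112 and 122 FPKM at week 7 and fell (0.00838), within a family of 75 with a median of -0.05.

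Immune genes differed in opposite directions between the pairs. Of 26 antimicrobial peptide genes 11 lay above 0 and 15 below (median -0.04), with pair medians of 0.85, -1.50, -0.76, 1.39 and 0.64, so the ALF ZT12 and ZT18 pairs went against the other 3. The defensin gene Def had 19.5, 55.7, 31.6, 54.2 and 32.3 FPKM at week 5 and 141, 64.8, 23.5, 259 and 70.9 FPKM at week 7. It rose over 16 libraries (adjusted p = 0.0325, and up to 0.141 without week 7 ALF ZT06, ALF ZT12 or TRF ZT12). The stress peptide gene TotC had 7.91, 15.2, 37.4, 13.9 and 8.13 FPKM at week 5 and 139, 32.7, 14.0, 112 and 28.4 FPKM at week 7, high in the same 2 week 7 libraries as Def, ALF ZT06 and TRF ZT12 (1.65, SE 0.68, adjusted p = 0.311). The cytokine gene upd3, a ligand of the JAK-STAT pathway in gut repair, had 1.13, 1.91, 0.819, 1.44 and 1.3 FPKM at week 5, 3.29, 1.71, 4.24, 2.64 and 2.16 FPKM at week 7 and 0.432 ± 0.178 FPKM at week 3. It rose over 16 libraries (adjusted p = 0.00219) with 1 overlapping library, and such low levels rest on few reads.

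Whether the age difference itself depended on feeding was tested as an interaction of 3 ALF and 2 TRF pairs. No gene of 11974 passed with limma (0%, smallest adjusted p 0.999), and an unadjusted p under 0.05 was found for 208 genes with the larger increase in TRF (1.74%) and 165 with the smaller (1.38%). PGRP-SD, a peptidoglycan receptor of the immune system, had 84.8, 195, 93.0, 107 and 32.8 FPKM at week 5 and 61.8, 64.4, 59.7, 244 and 66.4 FPKM at week 7. The 3 ALF pairs were lower and the 2 TRF pairs higher at week 7, with a difference of 1.98 (SE 0.37, unadjusted p = 0.00161). CecC, a cecropin, had 10.6, 27.9, 11.4, 4.20 and 1.51 FPKM at week 5 and 5.61, 9.60, 1.17, 66.1 and 4.97 FPKM at week 7, with a difference of 4.06 (SE 0.80, unadjusted p = 0.00216). CG18179 (3.93, SE 0.73, unadjusted p = 0.00163), Ect3 (1.86, SE 0.35, unadjusted p = 0.00167) and CG16772 (1.11, SE 0.22, unadjusted p = 0.00251) went the same way. lectin-28C had 55.3, 33.0, 23.9, 102 and 98.7 FPKM at week 5 and 62.7, 49.0, 43.3, 52.6 and 53.4 FPKM at week 7; here the TRF libraries were highest at week 5, and the difference was -1.43 (SE 0.24, unadjusted p = 0.000994). Sfp35C, a seminal fluid gene (-1.19, SE 0.25, unadjusted p = 0.00321), CG18643 and 2 small RNA genes were also below 0. With 5 pairs whose times are in doubt, a lack of calls does not show that both feeding types aged alike.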

How the data were processed

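The deposited table of the authors gives FPKM for each RefSeq transcript in each library, and it holds 0 columns of other series' samples. Per the submitters' processing notes, the tools were CASAVA 1.8.2, STAR 2.2.0c and HOMER on build dm3; which tool did what is not given in the sources used here. Libraries were unstranded and from polyA+ RNA, per the labels' protocols, and coordinates are those of the table (dm3).

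A single transcript stood for each of 15153 genes, that of highest FPKM averaged over the 10 libraries. FPKM times length fell on whole multiples of 1 read at low values (100% within 0.03 reads), which gave each library's depth. Tests used log2(FPKM + 1) of genes averaging 1 FPKM or more. The paired fit was limma 3.58.1 (R 4.3.3) with a trended prior, 5 blocks of feeding and ZT, Benjamini-Hochberg adjustment and a threshold of 0.05; it was tested on simulated data. The second fit had all 16 week 5 libraries and feeding as a covariate, without blocks or a term for time of day. Fold changes of low genes are understated on this scale. Figures used python 3.11.15 with matplotlib 3.10.9.

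A few list entries were dropped after the table was opened and before their values were looked at. The comparison and the gene lists were chosen with earlier results of these data known. Named genes were to be the 15 largest changes each way past the threshold with at least 5 FPKM at 1 age and the same sign in 5 pairs. None passed, so the 15 each way with the smallest unadjusted p were taken, a choice made after the values were seen. From each list came the 2 with the smallest p and, chosen later, members that passed in the second fit, and for the interaction 5 each way. No set test was run. Alternatives are given in the closing section.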

Additional observations from a re-analysis of the deposited data

Results flagged for a closer look

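In groups of 5 libraries, a highest or lowest value was marked when its gap to the nearest other made up more than 0.71 of the group's range, which chance gives in about 1 of 20 groups. Many groups were searched, and how many of the marks below chance would give was not worked out. At week 7 the ALF ZT06 library stood apart for RnrL (7.83 FPKM), Tpi of glycolysis (488 FPKM) and Clk (7.12 FPKM, low). The ALF ZT18 library stood apart for aconitase (Acon, 490.3 FPKM) and the clock gene Pdp1 (75.3 FPKM), and the TRF ZT12 library for RpL38 (656 FPKM), CG32026 (32.01 FPKM, low), PGRP-SD (244 FPKM) and Ect3 (21.5 FPKM). At week 5 the ALF ZT12 library was high for 5.8SrRNA:CR40454 (6.93 FPKM), RnrL (3.81 FPKM) and Drsl3 (26.6 FPKM), and the ALF ZT06 library for the testis proteasome gene Rpn12R (45.8 FPKM) and Snap25 (5.53 FPKM). The TRF ZT12 library was low for a small nucleolar RNA (27.3 FPKM) and Obp22a (33.1 FPKM), and the TRF ZT18 library was low for Prosbeta3 (139 FPKM) and high for Got1 (553 FPKM) and gce (16.1 FPKM).

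Outside the comparison, 3 libraries labelled periphery at week 7 had the ninaE level of eyes: 22212 FPKM at ALF ZT00, 22939.9 FPKM at TRF ZT00 and 22027 FPKM at TRF ZT06, against at most 0.633 FPKM in the 10 libraries compared.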

How the results depend on the processing

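In the paired comparison 0 genes passed under both other pseudocounts (0.1 and 5), no filter, a minimum of 5 FPKM (smallest adjusted p 0.0511), median-of-ratios rescaling, limma-voom on recovered reads, another transcript choice and each feeding type alone. It was 25 with no replicate block (8 higher, 17 lower). The pairing came from the labels only: deviations of paired libraries correlated at -0.16 to 0.09. Among the week 7 libraries, no week 5 library correlated best with its own partner. The count was 4 with TRF week 7 libraries set against week 5 libraries labelled 6 h earlier, 90 with the spread shared with week 3, 1570 against all 16 week 5 libraries, and 0 to 1 when 1 pair was left out (1 without TRF ZT18). For the interaction it was 0 in every setting run. The 1570 became 998 (565 higher, 433 lower) with only the 11 week 5 libraries outside the pairs, 654 (477 and 177) without the 2 TRF week 7 libraries, and 989 to 1220 without 1 week 7 library (989 without ALF ZT12). These and the other settings of that comparison were chosen after the data were seen. Rescaling by the median of ratios gave 856 higher and 883 lower genes there. Of 113 named genes under all settings of the paired fit, 2022 values kept their side, 119 newly passed and 3 changed sign: Drsl3 with TRF 6 h earlier (-0.21), Jheh1 in ALF alone (-0.011) and PGRP-SC2 in TRF alone (0.18). Genes of few reads are limited by depth, and intervals cover these libraries only.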

Other observations

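Genes of the fourth chromosome, a small chromosome rich in heterochromatin, were lower at week 7 than at week 5. This group was singled out after the values were seen and has no test of its own. Of 77 genes tested, 75 lay below 0 (median -0.27) and 27 were lower without overlap, beside 2.76% of all genes. Over 16 libraries 42 fell (54.5%, beside 5.56% of all genes) and 0 rose. The pairs had medians of -0.40, -0.40 and -0.14 under ALF and -0.17 and -0.28 under TRF. Leaving out 1 week 7 library left 31 to 35 falls, and leaving out both TRF libraries left 15. In each library, the median of these genes relative to chromosome arms 2L, 2R, 3L and 3R was set against the mean of week 5: it was -0.12 to 0.08 in the 5 paired week 5 libraries, -0.15 to 0.22 in the other 11, -0.36 to -0.22 at week 7 and -0.26 to -0.17 in the 5 week 3 libraries. Weeks 3 and 7 thus lay below week 5 on the same side, without overlap. In heads whose markers match the label it was -0.60 to 0.12 at week 3 (8 libraries), -0.32 to 0.18 at week 5 (13) and -0.43 to -0.04 at week 7 (5), which overlap.

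Genes on the heterochromatic and unplaced scaffolds, where Scp1 and CG40002 lie, showed a similar order: 55 of 85 tested in the pairs lay below 0 (median -0.20). Over 16 libraries 66 were tested, of which 26 fell and 1 rose (beside 5.56% and 7.59% of all genes); 15 fell without week 7 ALF ZT12, 17 without ALF ZT18 and 8 without both TRF libraries. Relative to the arms, 86 such genes were at -0.40 to -0.12 at week 7, -0.35 to -0.17 at week 3 and -0.25 to 0.15 in the 16 week 5 libraries. With no filter on low values their median was 0.00 in the pairs, and over 16 libraries 32 fell and 3 rose among 236 genes. Long transcripts also differed: with genes split by length into 5 equal classes, 43 rose and 236 fell over 16 libraries in the class of 2797 bases or more, against 284 and 84 in that of 811 to 1279 bases. On the fourth chromosome the median was below 0 in all 5 classes (-0.12 to -0.35). Whether length, library preparation or batch had a part in these differences was not tested.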
